A study of Drosophila melanogaster with 3 samples.

Results

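The nuclear genes for subunits of the oxidative phosphorylation complexes were examined in peaks of a GFP-tagged protein from whole Drosophila melanogaster embryos. Members were the protein-coding genes of the Ensembl BDGP6 annotation (the dm6 assembly) whose symbols begin with ND- (complex I), SdhA, SdhB, SdhC or SdhD (complex II), UQCR- (complex III), COX4 to COX8 (complex IV) or ATPsyn (complex V). This gave 87 of 13968 protein-coding genes on 7 chromosome arms, of which 40 belong to complex I, 7 to complex II, 9 to complex III, 16 to complex IV and 15 to complex V. By symbol, 63 were standard forms and 24 were paralogs whose name is that of a subunit followed by L, such as COX4L or ND-51L1. The final L of ND-MNLL belongs to the name of the subunit itself, so it was counted as a standard form.

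The data are chromatin immunoprecipitations sequenced from mixed-sex embryos of 0 to 24 h, made with an anti-GFP antibody on chromatin sonicated to 200 to 800 bp. There were 3 biological replicates of 1 group, numbered 1, 2 and 4, each from its own biosample of the same transgenic line, and the protocol documents attached to them differ. The labels are at odds on which protein carries the tag: REPTOR-BP (CG18619) in the fields for strain, source and antibody, but REPTOR with GFP at its C-terminus in the description and a note. The regions below are therefore called those of the tagged protein. Neither an untagged line nor a treated or mutant one was used here, so the comparisons are between the members and all protein-coding genes, among the members, and among the replicates. The list of each replicate has 30000 regions in which peaks are mixed with background. A pooled list also has 30000, and the authors' optimal list, the reproducible top of it, has 5208. The signal is the authors' value per region on each list's own scale, and it ran from 148 to 4036 in the optimal list. No read counts are given, so the depth is unknown.

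As background, complexes I to IV of the inner mitochondrial membrane pass electrons to oxygen and, other than complex II, pump protons, and complex V uses the proton gradient to make ATP. All complexes but complex II also hold subunits encoded by mitochondrial DNA, so the nuclear genes of those complexes have to be expressed in step with another genome. Complex I has core subunits that carry out the catalysis and many accessory subunits around them. In Drosophila many duplicated genes for these subunits are expressed mainly in the testis. REPTOR and REPTOR-BP are bZIP transcription factors that act when the nutrient-sensing kinase complex TORC1 is inhibited.

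A gene was said to have a promoter peak when an optimal summit lay within 500 bp of one of its start sites, and its strongest such summit was used. Sequences at summits are shown for 3 members whose summit had a match within 100 bp among the 5208 strongest regions of all 3 replicates and whose window holds at most 30 bases of annotated 5′ untranslated region. The window of ND-MWFE, the second strongest, is not shown. Each runs from 50 bases before to 50 bases after the summit, on the plus strand of dm6 (RefSeq sequence), with no capitals because none of the 13 searched words occurs in it. The windows are chrX:6679317-6679417 for ND-ASHI, chrX:19744323-19744423 for COX6B and chr3R:11819476-11819576 for COX5A. Their GC contents were 28.7%, 53.5% and 38.6%.
ND-ASHI: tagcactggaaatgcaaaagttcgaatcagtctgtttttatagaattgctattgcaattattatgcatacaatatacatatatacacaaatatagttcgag
COX6B: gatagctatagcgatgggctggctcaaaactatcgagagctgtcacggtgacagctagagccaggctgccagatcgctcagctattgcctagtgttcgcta
COX5A: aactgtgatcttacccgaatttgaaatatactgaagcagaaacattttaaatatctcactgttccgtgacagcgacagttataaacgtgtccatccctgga

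A promoter peak was found at 18 of the 87 members, 20.7% (95% Wilson interval 13.5 to 30.4%), against 20.5% of all protein-coding genes. The members as a whole were thus at the background share. The peaks were not spread evenly over them: all 18 belonged to the 63 standard forms (28.6%, 18.9 to 40.7%), and none to the 24 L-named paralogs, where a count of 0 allows a share of up to 12.5%. Complex I had peaks at 9 of 40 genes (22.5%, 12.3 to 37.5%), complex II at 1 of 7 (14.3%, 2.57 to 51.3%), complex III at 0 of 9 (up to 33.3%), complex IV at 5 of 16 (31.2%, 14.2 to 55.6%) and complex V at 3 of 15 (20%, 7.05 to 45.2%). The intervals of the 5 complexes overlap one another and include the background share. They cover the counting of genes only. No test was made between the complexes.

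**Figure D1:**
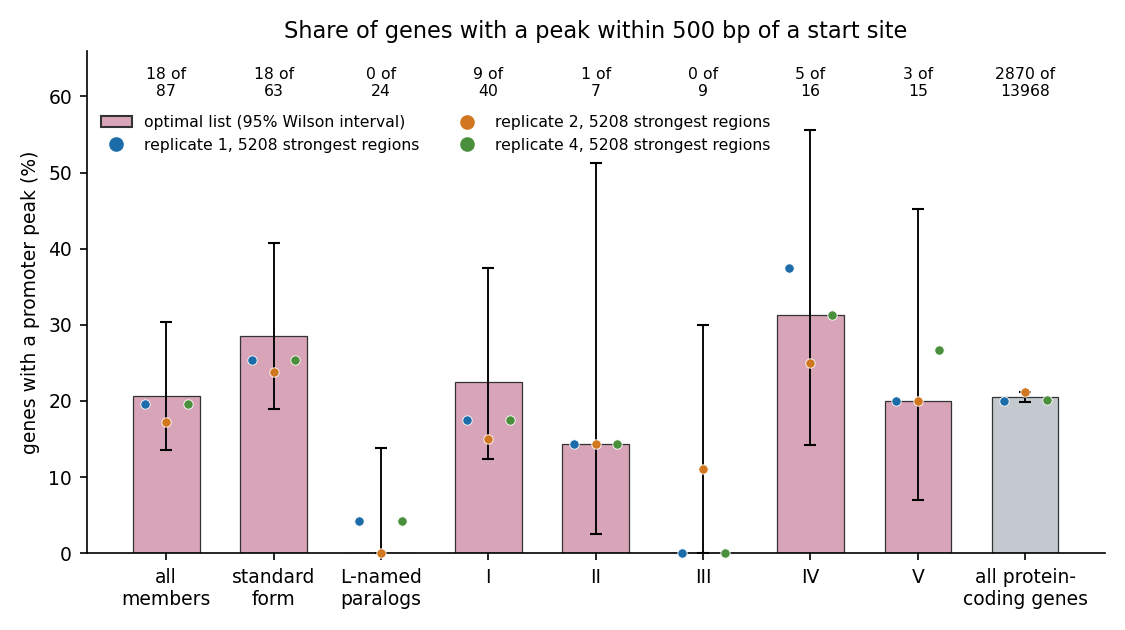
Share of genes (%) with a promoter peak in the optimal list (bars, with 95% Wilson intervals) and among the 5208 strongest regions of replicates 1, 2 and 4 (points), for the members, their standard forms and L-named paralogs, complexes I to V, and all protein-coding genes. The bar of all members, at 20.7%, is level with that of all genes, at 20.5%, and the L-named paralogs and complex III have no bar.

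In the replicates, cut to their 5208 strongest regions, 17, 15 and 17 members had a promoter region in replicates 1, 2 and 4. These are shares of 19.5%, 17.2% and 19.5%, a mean of 18.8% ± 1.33 (SD, n = 3), against background shares of 20%, 21.1% and 20.2%. The members' share was below the background share in each replicate, by at most a few percentage points. In all 3 replicates together 12 members had one (13.8%), against 14% of all genes. Among standard forms the share was 24.9% ± 0.916 (SD, n = 3), higher than for all genes in each replicate. By complex, the counts in replicates 1, 2 and 4 were 7, 6 and 7 for complex I, 1 each for complex II, 0, 1 and 0 for complex III, 6, 4 and 5 for complex IV, and 3, 3 and 4 for complex V.

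When only standard forms were counted, complex IV had peaks at 5 of 8 genes (62.5%, 30.6 to 86.3%), and 5, 4 and 4 of the 8 had a region among the strongest of replicates 1, 2 and 4. The other complexes had peaks at 9 of 34 (complex I, 26.5%), 1 of 4 (complex II, 25%), 0 of 6 (complex III) and 3 of 11 (complex V, 27.3%). Complex IV was the only complex whose interval for standard forms lay above the background share of 20.5%, in counts of 8 genes. Of these 8 genes, 7 had a start site of a different gene within 1000 bp, and its part in the count was not tested. Among all genes with such a neighbour the share with a peak was 32.2%, which lies inside the complex IV interval. Within complex I, 2 of the 7 core subunits (28.6%) and 7 of the 27 other standard forms (25.9%) had a peak.

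**Figure D2:**
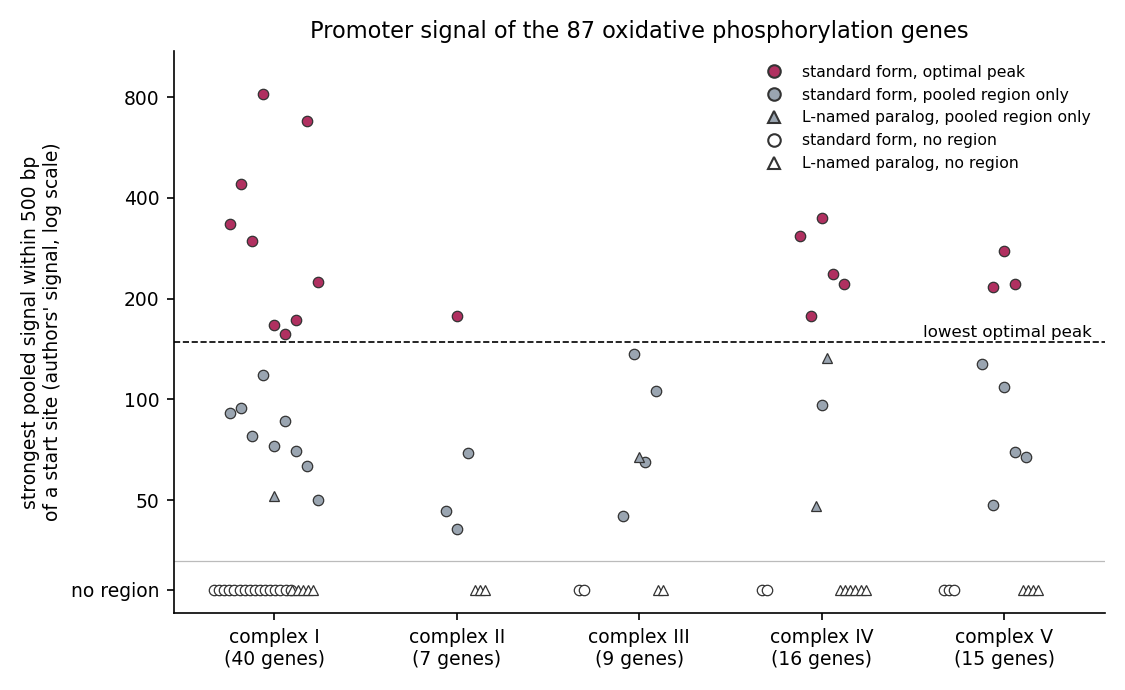
Strongest pooled signal within 500 bp of a start site (log scale, the authors' signal) for each of the 87 members by complex; circles are standard forms, triangles L-named paralogs, filled red symbols are optimal peaks, grey ones regions of the pooled list alone, and open ones genes with no region. The members with a peak run from 156 to 815, the 3 highest are complex I genes, and all L-named paralogs lie below the dashed line of the lowest optimal peak.

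Signals of the members' peaks ran from 156 to 815, with a median of 231, against a median of 298 over all genes with a promoter peak. Placed among the 2383 distinct promoter peaks, the members' peaks had a median percentile of 37.7, from 5.37 to 90.8, with 8 above the middle of that list and 10 below it. In the replicates' own lists the median percentile was 52.0, 49.3 and 49.9 in replicates 1, 2 and 4. The mean of these was 50.4 (SD 1.42). The replicate medians cover the members with a promoter region among the strongest of that replicate. These were 17, 15 and 17 members in replicates 1, 2 and 4, not the 18 with an optimal peak. ND-B22, the weakest of the 18, was in none of these sets, and COX7AL2, without an optimal peak, was in those of replicates 1 and 4. Because the genes differ, the replicate medians cannot show whether the low median of the optimal list recurs in the replicates. The 3 strongest of the members' optimal peaks belonged to complex I. They were those of ND-ASHI (chrX:6679221-6679527, signal 815), ND-MWFE (chr2R:13158365-13158633, 681) and ND-42 (chr3R:22027267-22027722, 440), which encode the fly forms of the mammalian accessory subunits NDUFB8, NDUFA1 and NDUFA10.

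ND-ASHI had signals of 277, 213 and 318 in replicates 1, 2 and 4, which are ranks 313, 353 and 392. It was high in all 3 replicates, and its order differed little between them. ND-MWFE had signals of 244, 82.1 and 327 (ranks 406, 2285 and 377), so replicate 2 placed it far lower than replicates 1 and 4 did. ND-42 had signals of 121, 90.8 and 212 (ranks 1471, 1863 and 825), with replicate 4 the highest. It was also the only member with a second optimal peak in the promoter window. The stronger summit lay near the start site of Cchl, the heme lyase of cytochrome c, and the other was 12 bp from the start site of ND-42.

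The core subunits of complex I with a peak were ND-24 and ND-51, and the other core subunits, ND-75 among them, had none. ND-24, an iron-sulfur subunit (chrX:17631939-17632394, signal 334), had 104, 85.2 and 160 in replicates 1, 2 and 4, at ranks 1858, 2134 and 1339. ND-51, which binds NADH and the flavin (chr2L:6062648-6063103, signal 297), had 75.6, 70.9 and 149, at ranks 2988, 3018 and 1488. For each of the pair replicate 4 gave the highest value, and all 3 replicates placed the promoter among their 5208 strongest regions. The remaining complex I peaks were weaker and belonged to accessory subunits, namely ND-SGDH (signal 225), ND-MNLL (173), ND-B17 (167) and ND-B22 (156).

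These weaker complex I peaks differed in how the replicates ranked them. ND-SGDH had 77.3, 58.0 and 114 in replicates 1, 2 and 4, and stayed among the 5208 strongest in each. ND-MNLL had 75.0, 22.8 and 54.5, which put it at rank 19513 in replicate 2. ND-B17 had no region within 500 bp in replicate 1, with 37.3 in replicate 2 and 68.1 in replicate 4. ND-B22, the weakest of the 18, had 48.0, 43.9 and 49.3 and was outside the 5208 strongest of every replicate, although it is in the optimal list.

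Complex II had 1 peak, at SdhC (chr3R:11209948-11210403, signal 177), which encodes a membrane anchor of succinate dehydrogenase. Its signals were 57.9, 59.6 and 56.4 in replicates 1, 2 and 4, at ranks 4303, 4134 and 5169. In replicate 2 the region matched to the optimal summit within 100 bp was weaker, with a signal of 40.4. SdhA and SdhB, the flavoprotein and iron-sulfur subunits, and SdhD, the other anchor, had only weaker regions, with pooled signals of 46.4, 41.2 and 69.3. Complex III had no peak at any of its 9 genes. Its highest pooled signals were 137 at UQCR-14, just under the lowest optimal signal of 148, and 106 at UQCR-C2, a core protein of the complex. UQCR-14 had a region of signal 44.9 in replicate 2 and none in replicates 1 and 4, and UQCR-C2 had 24.4 in replicate 1, 80.6 in replicate 2 and none in replicate 4.

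The 5 complex IV peaks were at COX6B (chrX:19744300-19744444, signal 348), COX5A (chr3R:11819298-11819753, 308), COX7B (chr3L:17425112-17425567, 237), COX8 (chr3L:21539301-21539756, 221) and COX5B (chr2L:6557317-6557772, 177). All encode nuclear subunits that surround the catalytic core of cytochrome c oxidase. COX6B, which faces the intermembrane space, had 117, 95.5 and 100.6 in replicates 1, 2 and 4. COX5A had 94.6, 72.8 and 128, and COX5B, a zinc-binding subunit on the matrix side, had 76.5, 57.0 and 63.8. These genes were among the strongest regions of every replicate. COX7B had 98.6, 25.2 and 77.8, with replicate 2 at rank 16827, and COX8 had 94.0 in replicate 1, 38.8 in replicate 2 and no region in replicate 4. Of the standard forms of complex IV, COX4, COX7A and COX7C had no peak.

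Complex V had peaks at ATPsynE (chr3R:14326775-14327230, signal 278), a membrane subunit, ATPsyngamma (chr3R:29748667-29749122, 221), the rotating central stalk, and ATPsynCF6 (chr3R:23355999-23356454, 216), a part of the peripheral stalk. ATPsynE had 72.1, 101.1 and 121 in replicates 1, 2 and 4, and ATPsyngamma had 66.7, 69.3 and 78.5. Both were among the strongest regions of every replicate. ATPsynCF6 had 70.6, 38.7 and 114, and replicate 2 placed it at rank 8595. ATPsynbeta, the catalytic subunit, had no peak, with 35.6, 52.1 and 37.8. ATPsynC, the ring subunit, reached a pooled signal of 127 and was among the strongest regions of replicates 2 and 4, with 24.3, 77.3 and 61.9 in replicates 1, 2 and 4.

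**Figure D3:**
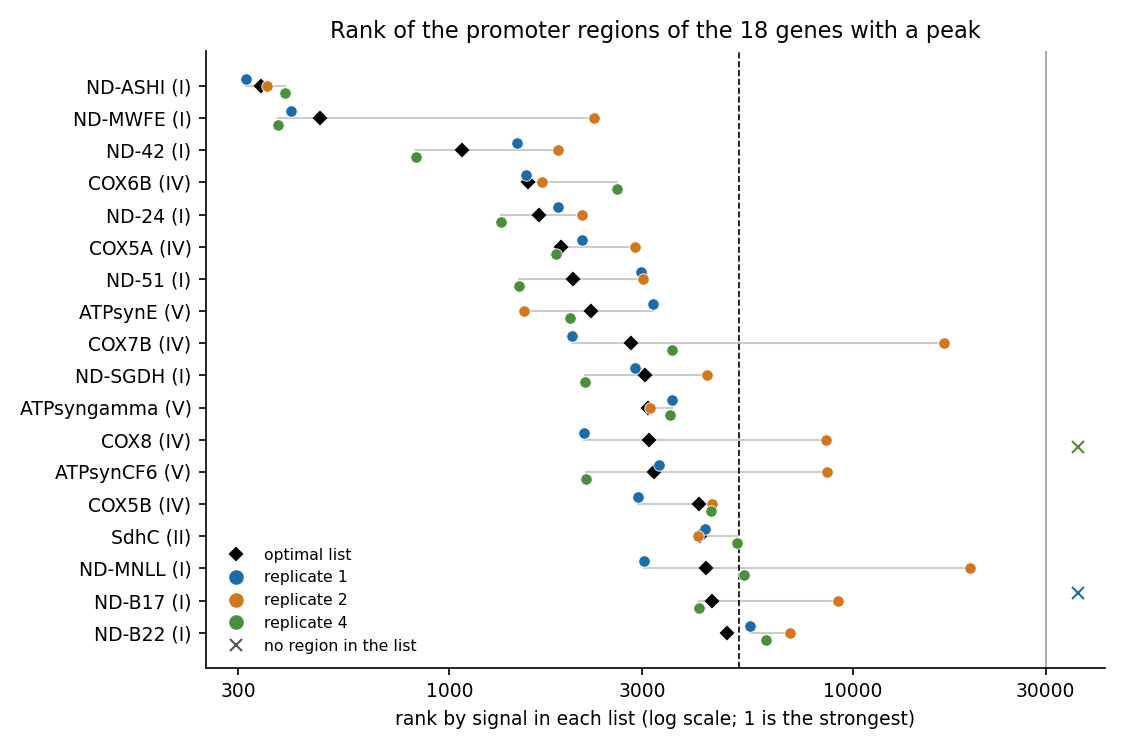
Rank by signal (log scale, 1 is the strongest) of the strongest promoter region of each of the 18 members with a peak, in the optimal list (diamonds) and in replicates 1, 2 and 4 (circles); the dashed line is rank 5208, and crosses mark a replicate list with no region there. ND-ASHI lies between ranks 313 and 392 in the replicates, whereas COX7B and ND-MNLL lie at ranks 16827 and 19513 in replicate 2.

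By position, the optimal summits of 8 of the 18 members had a match within 100 bp among the strongest regions of all 3 replicates, 6 in 2 replicates, 2 in 1 replicate and 2 in none. The replicate signals given above are those of the strongest region in the promoter window, which was not at the optimal summit for COX5B, ND-51 and SdhC in replicate 2, ND-SGDH in replicate 4, and COX8 in replicates 1 and 2. Replicate 2 matched 9 of the 18, against 15 in replicate 1 and 14 in replicate 4. The same shares over all optimal promoter peaks were not computed, so a difference particular to the members cannot be read from these counts. The median rank of the matched region, sought anywhere in the list, was 2914 in replicate 1, 3739 in replicate 2 and 2389 in replicate 4. Since the optimal list comes from these replicates, part of this match is built in.

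Almost all of the 18 peaks lay at divergent gene pairs. The start site of another protein-coding gene, on either strand, was within 500 bp of the summit for 16 of the 18 (88.9%). This compares with 56.6% of all genes with a promoter peak. In all 16 at least 1 such neighbour was on the opposite strand. The share with an opposite-strand neighbour was not computed over all genes, so the divergent arrangement has no background here. Taking the strongest summit of each, it was nearest to the member's own start site in 7 of the 16, nearer to a neighbour's in 7, and equally near to both in 2, COX6B and ND-MNLL. The distance to the member's own start site had a median of 100.5 bp and ran from 13 to 327 bp, against a median of 153.5 bp over all genes with a promoter peak. The summit was upstream of that start site for 15 members and downstream for 3 (ND-24, ND-SGDH and ATPsynE), and it was upstream for 88.2% of all genes with a peak. The start site nearest to the summit was used throughout. For COX5A, ATPsyngamma and ND-B22 the summit was upstream of an inner start site but downstream of the outermost one.

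Some neighbours encode mitochondrial proteins as well. ND-ASHI shared its peak with Fum1, the fumarase of the tricarboxylic acid cycle, with the summit 249 bp upstream of ND-ASHI and 273 bp upstream of Fum1. ND-42 shared its stronger peak with Cchl, whose start site was 15 bp from the summit against 214 bp for ND-42, and its other peak lay at its own start site. Others are genes of unrelated functions. SdhC shared its peak with Tctp, a growth-related protein, which was 71 bp from the summit against 327 bp for SdhC. ATPsynCF6 was paired with Sec13, a coat and nuclear pore protein (51 bp, against 163 bp), and COX5B with IFT52, a protein of cilium transport (43 bp, against 255 bp). COX5A lay 73 bp and its partner glo, an RNA-binding protein, 106 bp from the summit. COX6B and CG18809 had coinciding start sites, as did ND-MNLL and CG45089, so a peak there cannot be given to one of the pair. A summit at a divergent pair cannot be assigned to either gene from these lists.

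**Figure D4:**
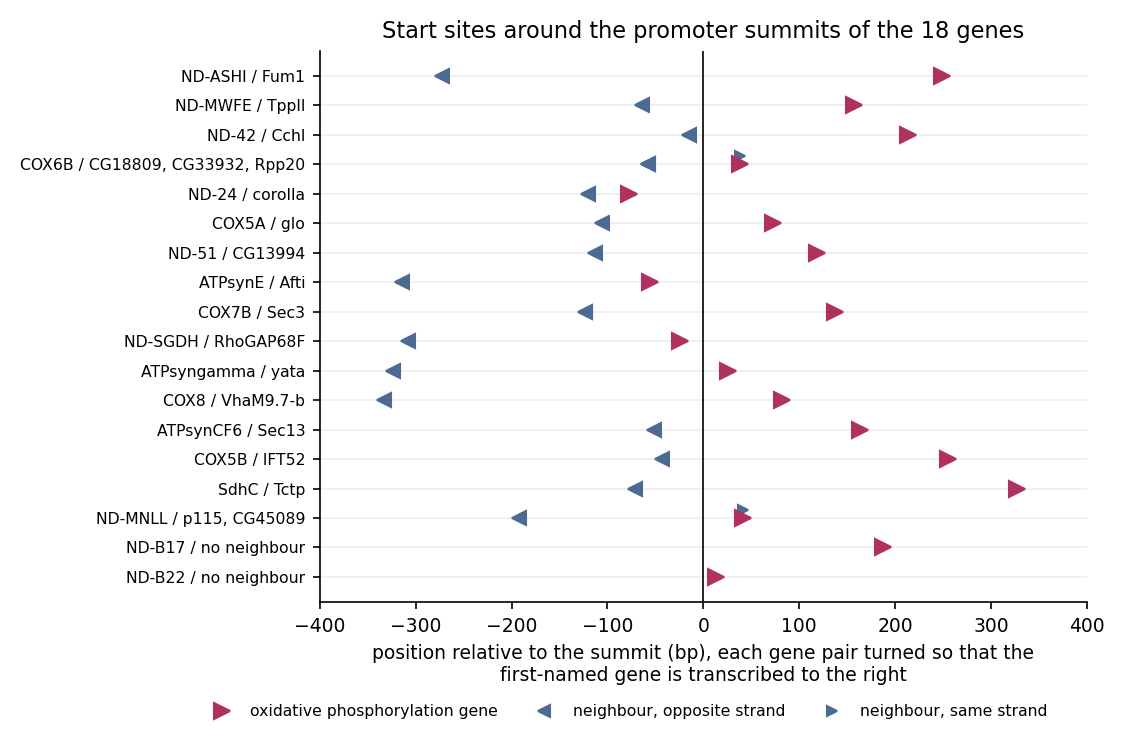
Position (bp) of the start sites of the 18 members (red) and of the neighbours within 500 bp (blue) relative to the optimal summit at 0, each pair turned so that the member is transcribed to the right. For 16 members a neighbour transcribed to the left lies on the other side of the summit or of the member, and ND-B17 and ND-B22 have none.

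A close neighbour was common among the members. A start site of another protein-coding gene lay within 1000 bp for 51 of the 87 members (58.6%), against 42.8% of all genes. Of these 51 members, 16 had a promoter peak (31.4%), against 32.2% of all genes with such a neighbour. Of the 36 members without one, 2 had a peak (5.56%), against 11.8% of all genes without one. Members with a neighbour were thus close to the background at 1000 bp, and likewise at other distances, with 39.0% against 37.5% of all genes at 500 bp and 28.1% against 25.9% at 2000 bp. Among standard forms the counts were 16 of 44 with a neighbour (36.4%) and 2 of 19 without (10.5%), and 7 of the 24 L-named paralogs had a neighbour (29.2%).

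No L-named paralog had a promoter peak. Of the 24, 17 have a partner among the members: ND-20L, ND-24L, ND-49L and ND-B14.5AL in complex I, SdhAL, SdhBL and SdhCL in complex II, UQCR-11L, UQCR-14L and UQCR-6.4L in complex III, COX4L, COX5BL, COX7AL and COX7CL in complex IV, and ATPsynCF6L, ATPsynGL and ATPsynbetaL in complex V. None of these 17 had a peak (up to 17.6%), against 4 of their 17 standard partners (23.5%, 9.56 to 47.3%), which were ND-24, SdhC, COX5B and ATPsynCF6. Anywhere in the 30000 regions, 3, 3 and 3 of the 17 paralogs had a promoter region in replicates 1, 2 and 4, against 8, 15 and 7 of the partners. None of the 17 paralogs had a region in all 3 replicate lists, and 10 had none in any, against 5 and 1 of the partners. Of all 13968 protein-coding genes, 4178 had a region in all 3 lists and 4981 had none in any.

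What regions these paralogs had were weak. ND-24L had a signal of 25.9 in replicate 4 and no region in replicates 1 and 2, against 104, 85.2 and 160 for ND-24. COX5BL had 19.3 in replicate 2 alone, against 76.5, 57.0 and 63.8 for COX5B. SdhCL and ATPsynCF6L had no region in any replicate. A close neighbour was present at 5 of the 17 paralogs (29.4%), against 11 of the 17 partners (64.7%), and its part in the difference was not tested. The other 7 L-named genes were COX6AL, COX6AL2, COX6CL, COX7AL2, ND-51L1, ND-51L2 and ATPsynepsilonL.

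COX7AL2 was the exception among L-named genes. It had signals of 106, 31.7 and 56.1 in replicates 1, 2 and 4, at ranks 1778, 11907 and 5201, so replicates 1 and 4 placed it within their 5208 strongest regions. Its pooled signal was 133, below the lowest optimal signal of 148, and the nearest optimal summit was 521 bp from its start site, just outside the promoter window. Among the 69 members without a peak, COX7AL2 and ATPsynC were in the strongest regions of 2 replicates, UQCR-C2 and COX7C of replicate 2, and the other 65 of none.

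Over all regions of the lists, replicate 2 stood apart. A promoter region was present anywhere in the lists of replicates 1, 2 and 4 for 38, 58 and 33 of the 87 members (43.7%, 66.7% and 37.9%), against 44.3%, 51.9% and 41.7% of all genes. Members exceeded the background in replicate 2 and were below it in replicates 1 and 4. For the standard forms the shares were 52.4%, 84.1% and 44.4%, and for the L-named paralogs 20.8% in each replicate. In the pooled list 44 members (50.6%) had a promoter region, against 46.2% of all genes.

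Many of the regions in replicate 2 were in that list alone. There were 25 such members (28.7%), against 11.8% of all genes, whereas 3 members each (3.45%) had a region in replicate 1 alone and in replicate 4 alone, against 4.34% and 4.54% of all genes. Of the 25, 22 were standard forms, and by complex 15 of the 40 genes of complex I (37.5%) were among them, with 2, 3, 3 and 2 genes of complexes II, III, IV and V. The strongest, named after their values were seen, were ND-B18 (signal 49.6, rank 5661), UQCR-Q (48.5, rank 5876), UQCR-14 (44.9, rank 6723) and ND-18 (44.5, rank 6828), and ATPsynB (38.0) and COX4 (30.1) were also among them. All 25 lay below the 5208 strongest, at ranks 5661 to 28547 with a median of 11797, and their summits had a median position 31 bp upstream of the start site. Of the 25, 6 had a region in the pooled list, against 439 of the 1644 protein-coding genes with a region in replicate 2 alone. For those 1644 genes the median summit position was also upstream of the start site. Neither trait was thus particular to the members.

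The shares were lower in the related gene lists. Of 24 genes of the tricarboxylic acid cycle and pyruvate dehydrogenase 2 had a region in replicate 2 alone. Of 21 mitochondrial gene regulators and bZIP factors 3 had one, and of 13 assembly factors 1. Of 13 inner membrane carriers and related genes and 10 subunit or cytochrome c genes without the prefixes 0 each had one. No test of the difference between lists was made. With the lists cut to 10000 regions, 12 members had a region in replicate 2 alone (13.8%), against 7.27% of all genes. The protocol document of replicate 2 differs from those of the other replicates, and so do those of the other replicates from each other, and their part in this was not tested.

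**Figure D5:**
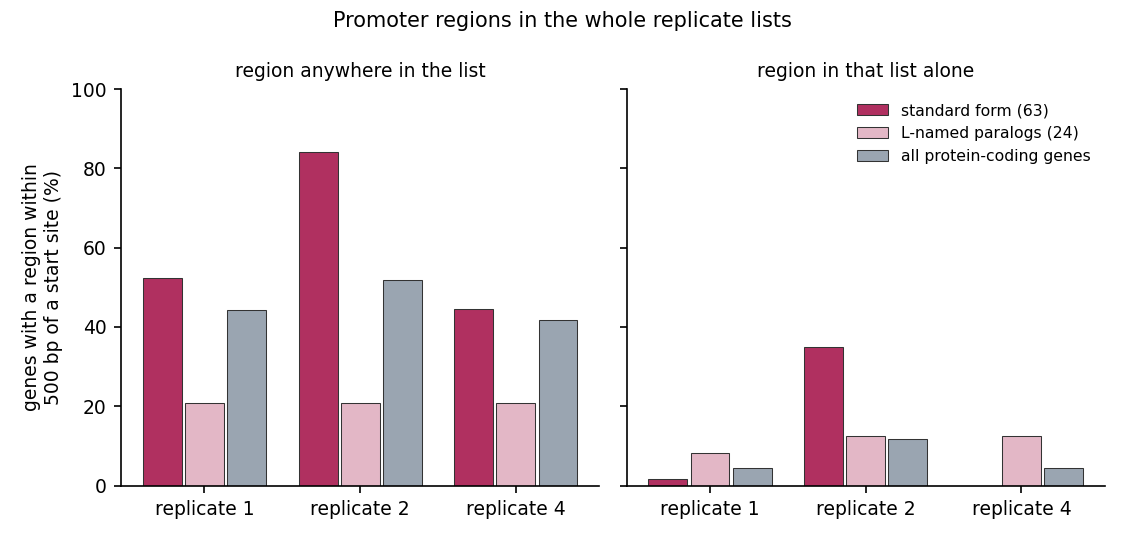
Share of genes (%) with a promoter region anywhere in the list of each replicate (left) and in that list alone (right), for the 63 standard forms, the 24 L-named paralogs and all protein-coding genes. Standard forms reach 84.1% in replicate 2, against 52.4% and 44.4% in replicates 1 and 4, and 34.9% of them have a region in replicate 2 alone.

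Other genes of the same pathway gave counts above the 20.5% of all genes, with wide intervals. Of 10 genes without these prefixes, listed as subunit or cytochrome c genes, 5 had a promoter peak (50%, 23.7 to 76.3%). Among them were the cytochrome c genes Cyt-c-d (signal 1111) and Cyt-c-p (187), which is not a protein of a complex, and blw, the catalytic alpha subunit of ATP synthase (437). The others were the cytochrome c oxidase subunits levy (214) and cype (184). The Cyt-c-d signal exceeded that of every member, at 351, 297 and 464 in replicates 1, 2 and 4. Its summit lay 396 bp downstream of the start site, and the peak was shared with CG31808. Neither sun, the epsilon subunit of ATP synthase, nor knon, a relative of an ATP synthase subunit, had a region in any replicate. With these 10 genes added to the members, 23 genes had a peak.

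Of 13 assembly factors 5 had a peak (38.5%, 17.7 to 64.5%), led by CIA30, a complex I assembly factor (signal 971). Of 24 genes of the tricarboxylic acid cycle and pyruvate dehydrogenase 7 had one (29.2%, 14.9 to 49.2%), led by Idh3g, a subunit of isocitrate dehydrogenase (936), and Fum1. A list of 21 genes held regulators of mitochondrial genes together with bZIP factors not shown here to regulate them. Of these 21, 8 had a peak (38.1%, 20.8 to 59.1%). They were led by Irbp18, a bZIP protein (890), Dref, the factor that binds the DNA replication-related element (740), and Pdp1, a PAR-type bZIP factor (705). Of 13 inner membrane carriers and related genes 5 had one (38.5%, 17.7 to 64.5%), led by Ucp4A, a mitochondrial carrier (542), and sea, the citrate carrier (519). These intervals include the background share, with exceptions. The lower bound was 20.8% for the list of regulators and bZIP factors. It was 23.7% for the subunit or cytochrome c genes without the prefixes. Both lists are small and mixed, and neither was recounted without its bZIP or cytochrome c genes. Peaks shared with another gene were 4 of the 5 of assembly factors and 5 of the 7 of the tricarboxylic acid cycle list. They were 5 of the 8 of regulators and bZIP factors and 3 of the 5 of carriers. A shared peak cannot be assigned to either gene. Fum1 has the peak of ND-ASHI, and the assembly factor Ccdc56 has that of mtTFB1 in the list of regulators.

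Promoter sequences from 250 bases before to 50 bases after the outermost start site were searched for 13 short words on both strands. GGTCACAC, the core of the Motif 1 element of housekeeping promoters, was present in 16 of the 87 members (18.4%), against 7.69% of all protein-coding genes. It was in 15 of the 63 standard forms and in 1 of the 24 L-named paralogs, COX7AL. It was found in 5 of the 18 members with a peak (27.8%) and in 11 of the 69 without (15.9%), against 10.9% of all genes with a peak and 6.87% of those without. TATCGATA, the DNA replication-related element, was in 9 members (10.3%), all standard forms, against 9.36% of all genes. TCAGTT, an initiator-like word, was in 12 members (13.8%), against 26.1%, and GAGAGAG, the GAGA repeat, in 1 (1.15%), against 5.86%. TGACG, the core of the cAMP response element, was in 20 members (23%), against 23.8%. No test of these shares was made.

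The word is shown for 4 of the 5 members with a peak that hold it, ND-MWFE being left out, as 30 bases around it, on the strand of the gene, with the word in capitals, because its share among the members was above that of all promoters. The windows are chr2L:15751075-15751104 (minus strand) for ND-B17, chr3R:11819313-11819342 (plus) for COX5A, chr2L:6557801-6557830 (plus) for COX5B and chr3L:17425475-17425504 (plus) for COX7B. In COX5A it reads on the other strand. The first base of the word lay at −15, −35, 12 and 9 from the outermost start site, and the word was 172, 195, 267 and 146 bp from the summit. For COX5A the outermost start site is not the one nearest to the summit, from which the 73 bp above was taken.
ND-B17: tttaagagtgcGGTCACACtggcggcaaca
COX5A: ttgaagatgcaGTGTGACCgcaattaaatc
COX5B: tactttaccgcGGTCACACtgatccatagc
COX7B: aacaacacaacGGTCACACtgttcaacaca

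At the summits themselves the words were rare. Within 50 bases of the 18 member summits GGTCACAC occurred in none, against 2.15% of all 2048 distinct promoter summits of genes. TATCGATA was in 2 of 18, SdhC and ND-SGDH (11.1%), against 3.32%. The bZIP-type word TGACG was in 3 of 18 (16.7%), against 7.57%, and TTACATAA in 1, ND-MNLL (5.56%), against 1.17%. TGACGTCA, which holds TGACG, and TTACGTAA were in no member promoter, against 0.437% and 0.451% of all promoters. The median GC content of the 18 windows was 32.7% (23.8 to 53.5%), against 33.7%. A word match is a description of the sequence and does not show a bound site.

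Summit windows with a word are shown for SdhC (chr3R:11210126-11210226) and ND-MNLL (chrX:7893789-7893889), chosen after the words were seen, on the plus strand of dm6. The capitals mark TATCGATA in SdhC, and TGACG and TTACATAA, each read on the other strand, in ND-MNLL. The ND-MNLL summit was matched among the strongest regions of 1 replicate and that of SdhC of 2.
SdhC: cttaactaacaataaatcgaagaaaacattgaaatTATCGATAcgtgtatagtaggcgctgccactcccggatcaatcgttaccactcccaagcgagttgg
ND-MNLL: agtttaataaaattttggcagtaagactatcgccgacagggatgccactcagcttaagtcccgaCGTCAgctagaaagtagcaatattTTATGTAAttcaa

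Of the 69 members without a promoter peak, 26 had a weaker pooled region in the promoter window and 43 had none. With or without a peak, 50.6% of the members had a pooled region there, against 46.2% of all genes. The share among all genes without a peak was not computed. The median distance from the start sites of these 69 members to the nearest optimal summit was 7585 bp. An optimal summit lay inside the gene for 4 of them, ND-15, ND-39, UQCR-Q and COX7AL2. Just under the lowest optimal signal of 148 were UQCR-14 (137), COX7AL2 (133), ATPsynC (127) and ND-23 (118), and just above it were ND-B22 (156), ND-B17 (167) and ND-MNLL (173). The genes of ND-49 and ATPsynbeta lie on chromosome 4, and neither had a peak.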

How the data were processed

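Peak lists of 3 biological replicates, a pooled list and an optimal list, all in dm6, were used as deposited. The signal in each list is the value per region that the authors deposited, on that list's own scale. Per the deposited inventories, the optimal list was derived from the replicate and pooled lists by irreproducible discovery rate. The sources used here name no aligner, caller or threshold. Start sites came from Ensembl release 115 and sequence from the RefSeq assembly of dm6. In replicates the 5208 strongest regions were counted, the length of the optimal list. Intervals are 95% Wilson intervals of counting error only, and the limit set by a count of 0 is 3 counts. Replicates may share technical variation. No test was made, since set tests and chance tests were not used. The members, 5 related gene lists and 13 words were chosen with earlier results of these data known. Of the 27 assembly factors listed, 13 were matched to genes, and of 29 tricarboxylic acid cycle genes 24. Named are all members with a peak, the L-named paralogs with partners, and the strongest of each list. Alternatives were other promoter widths, list lengths, start sites and word windows, the peaks above the list's median signal, and each replicate left out. Counting was tested on simulated data. Python 3.11.15, numpy 2.4.6, scipy 1.17.1 and matplotlib 3.10.9 were used. The dm3 lists were not used here.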

Additional observations from a re-analysis of the deposited data

How the results depend on the processing

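Of 99 recomputed values over 28 results, 63 kept within 1.5 times the reported count, or within 1 SD of a reported mean, and 36 moved. With only the optimal peaks above the list's median signal 8 members had a peak, against 1720 of all genes. They were 5 in complex I, 0 in complex II, 2 in complex IV and 1 in complex V, all 8 standard forms and all 8 shared. With a promoter of 250 bp complex II had 0 peaks and 9 peaks were shared. The mean share over replicates was 31.0% for the 10000 strongest regions, 9.58% for the 2500 strongest, 49.4% for all regions, 22.6% at 1000 bp and 15.7% at 250 bp, and 18.4 to 19.5% with each replicate left out. The count in every replicate was 4 for the 2500 strongest and 22 for all regions, and 12 to 15 with each replicate left out. Replicate 2 alone gave 12 members for the 10000 strongest regions. The median percentile was 58.9 within the pooled list. Counting every symbol ending in L gave 1 peak, ND-MNLL. Within 50 bases of a summit, 2 members held TATCGATA, 3 held TGACG, 1 held TTACATAA, and 0 held the Motif 1 core, the E-box, the GAGA repeat, the GATA site, the TATA box, the initiator-like word or TTATATAA. From 500 bases before to 100 after the start site, 3 members held the GAGA repeat GAGAGAG (3.45%), against 8.52% of all genes. The TATA box TATAAAAG was in 5 (5.75%, against 8.29%) and the initiator-like word TCAGTT in 26 (29.9%, against 40.4%). TGACG was in 33 (37.9%, against 41.7%), TTACATAA in 9 (10.3%, against 4.95%) and TTACGTAA in 2 (2.3%, against 0.931%). The cause was not tested, though fewer or more regions or bases were counted by construction. The members' share stayed close to that of all genes at 250 bp (18.4%, against 16.1%) and 1000 bp (21.8%, against 23.6%), and was 9.2%, against 12.3%, with those stronger peaks. No paired analysis was possible because the replicates form 1 group. Depth is unknown, so an absent region cannot be told apart from one too weak to be listed.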
